A study of Mus musculus with 8 samples.

Results

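Antimicrobial products of the gut lining were followed through 4 genes of a NanoString panel measured in whole colon of mice: Reg3g, Cnlp, Lyz1 and Defcr1. They were taken by name, as the C-type lectin, the cathelicidin, the lysozyme and the defensin among the 68 target genes of the panel, with no threshold on their values but with earlier results of these data known. NanoString nCounter counts fluorescent barcodes bound to each RNA, without amplification. C57BL/6 mice kept free of specific pathogens, of both sexes and 7 to 10 weeks old, received a control diet or the same diet with 4% NaCl (high salt diet, HSD) for 1 week. Colon RNA of 10 mice per diet was combined into 4 pools per diet, each of 1 sex. Pool M1-3 held male mice 1 to 3, M4-5 the other male mice, F1-3 female mice 1 to 3 and F4-5 the other female mice. A value thus stands for 3 or 2 mice, the spread between single mice is hidden, and p-values measure the spread between pools.

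Antimicrobial peptides and proteins keep bacteria away from the gut epithelium. Reg3g encodes a C-type lectin that binds the peptidoglycan of Gram-positive bacteria, and in mouse intestine its transcription rises with bacterial signals through Myd88 and with interleukin 22. Cnlp, known today as Camp, encodes the precursor of the cathelicidin peptide, which is stored in neutrophil granules and is also made by epithelial cells. Lyz1 encodes the lysozyme of Paneth cells, an enzyme that cuts peptidoglycan. Defcr1 is the older name of an alpha-defensin of Paneth cells. Paneth cells line the crypts of the small intestine and are rare in normal mouse colon. In RNA of whole tissue, more cells of a type and more RNA per cell cannot be told apart.

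Of the 4 genes, 3 matched a single RefSeq gene in the GRCm38.p6 annotation, Cnlp through a synonym of Camp, and Defcr1 is named only. The 250 bases before the start of Reg3g are shown because Reg3g varied most between pools of the genes that were above the background floor everywhere. They lie on the minus strand at chr6:78468875-78469124 (GRCm38.p6), and capitals mark matches to motifs searched on both strands.
Reg3g upstream: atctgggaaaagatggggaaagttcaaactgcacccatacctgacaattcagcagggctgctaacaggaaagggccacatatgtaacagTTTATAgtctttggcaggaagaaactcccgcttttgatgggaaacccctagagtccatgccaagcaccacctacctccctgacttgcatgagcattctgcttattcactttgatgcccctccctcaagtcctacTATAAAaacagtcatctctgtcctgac
The matches are to the TATA box TATAAA and begin 161 bases (on the opposite strand) and 27 bases before the start. Among 32851 RefSeq windows of the same length, 12.4% hold this motif on either strand. The STAT pattern TTCNNNGAA, held by 7.02% of windows, has no match here, and the windows of Camp and Lyz1 hold neither motif. A match says only that these letters are present.

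Lyz1 has a neighbouring copy, Lyz2, the lysozyme of macrophages, and the last 100 bases before each start are shown because the copies are so alike. Both are on the minus strand of chromosome 10, Lyz1 at chr10:117292869-117292968 and Lyz2 at chr10:117282273-117282372, and capitals mark the bases at which they differ.
Lyz1 upstream: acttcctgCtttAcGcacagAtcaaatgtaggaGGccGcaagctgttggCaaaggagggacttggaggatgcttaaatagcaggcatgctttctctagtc
Lyz2 upstream: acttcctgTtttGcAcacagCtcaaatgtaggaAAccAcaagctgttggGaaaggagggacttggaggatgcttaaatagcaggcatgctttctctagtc
Compared position by position without gaps, they share 92 of these 100 bases and 49 of the first 50 transcribed bases. Over all 250 bases before the start the share was 60.8%. The copies were not aligned, and an inserted or missing base farther upstream lowers that share, so it does not measure how far they diverge there. The sequence of the panel's Lyz1 probe was not used here, so how far it also reads Lyz2 RNA is uncertain.

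The deposited values are normalized counts, scaled so that all pools share 1 geometric mean over the reference genes (Gapdh, Gusb, Pgk1). Low values had been replaced by a floor taken from the pool's 6 negative control probes (their geometric mean), which was 1.59 to 6.51. Recovered totals were 13574 to 169300 counts per pool, and 1 count was worth 0.409 to 3.85 normalized counts. The F1-3 pools were the shallowest of both diets. The epithelial genes Cdh1, Ocln and Tjp1 were above the floor in every pool, and their sum was 5462 to 5553 on the control diet and 5148 to 6686 on HSD. The goblet cell genes Muc2 and Tff3 were also above the floor in every pool.

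Reg3g was spread widely within both diets. On the control diet its normalized count was 386.83 in M1-3, 29.18 in M4-5, 88.65 in F1-3 and 32.21 in F4-5. On HSD it was 72.45, 650.85, 269.99 and 625 in the same order. The control M1-3 pool was above 2 of the 4 HSD pools, and the HSD M1-3 pool was below 2 of the 4 control pools, so the diets overlapped. Between the lowest and the highest pool the level differed 22.3-fold. That is a log2 range of 4.48, the widest of the 47 target genes above the floor in all pools, whose median range was 1.89. The recovered counts were 23 to 1205, and the value of each pool was at least 3.00 times that of its highest negative control probe.

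**Figure D1:**
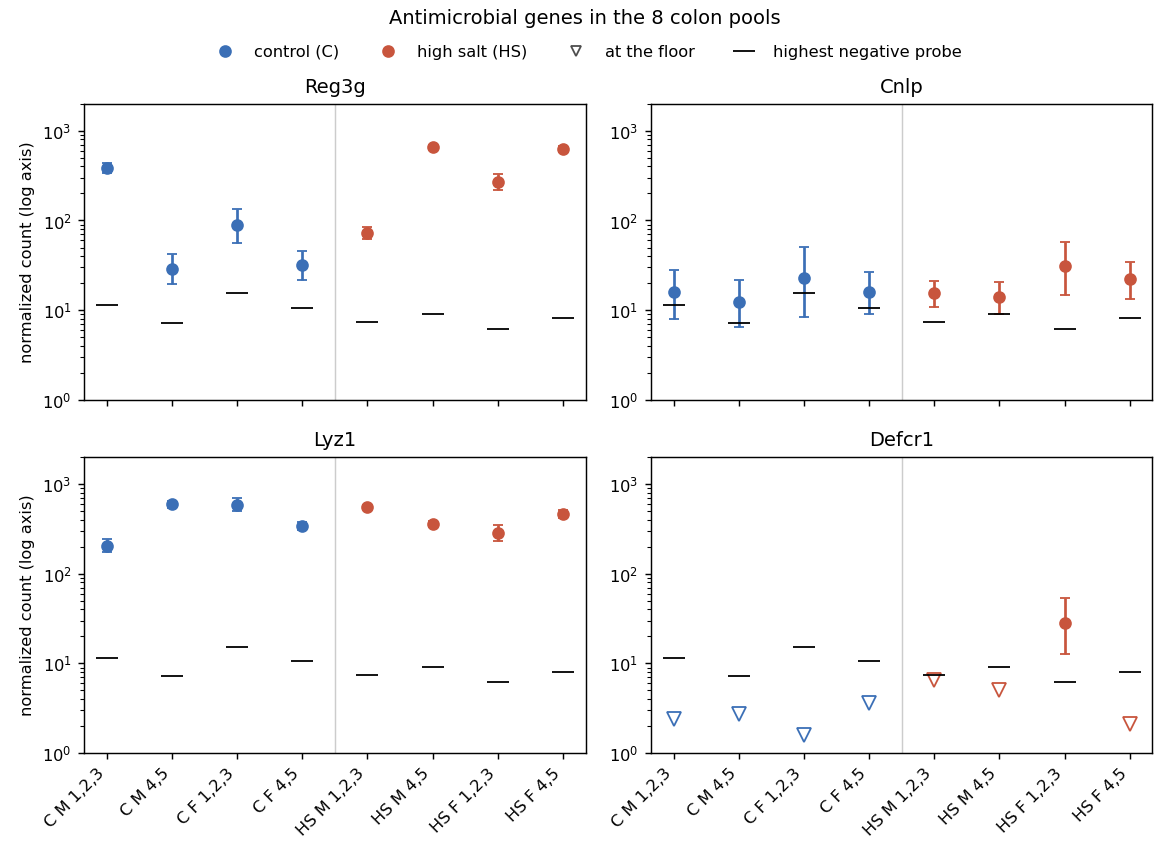
Normalized count (log axis) of the 4 genes in each pool, named by diet (C, control, blue; HS, high salt, red), sex (M, F) and mouse numbers; bars are 95% Poisson intervals of the recovered counts, open triangles are values at the floor and black dashes the highest negative control probe. Reg3g runs from 29.18 to 650.85 and overlaps between diets, Lyz1 stays between 205.64 and 589.82, Cnlp is low in every pool, and Defcr1 is above the floor in 1 pool.

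The mean of Reg3g was 134.2 ± 170.6 in control pools and 404.6 ± 281.5 in HSD pools (SD, n = 4 each). The log2 difference, on the scale of log2(value + 1), was 1.97 (standard error 0.906, 95% interval -0.047 to 3.98). It was second in size among the 68 target genes and did not pass limma's test at an adjusted p of 0.05 (adjusted p = 0.628). The two-sided exact permutation p was 0.143, where 4 pools against 4 can give 0.029 at the lowest. On the diet, 0% of the 68 target genes passed the adjusted test, 4.41% had an unadjusted p under 0.05 and 1.47% had diets that did not overlap. None of the 4 antimicrobial genes met any of these criteria.

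The M1-3 pools lay against the diet difference of Reg3g, which was 2.64 without the HSD M1-3 pool and 1.52 to 1.61 without an M4-5 or F4-5 pool. Without the control M1-3 pool, the difference was 2.74 (standard error 0.737) and passed limma's test at an adjusted p of 0.0451, and 7.35% of target genes passed with it. The genes that passed were Reg3g, I-FABP, Muc2, Tlr2 and trpv1. Without both M1-3 pools, a setting chosen after the values were seen, it was 3.42 (standard error 0.562, adjusted p = 0.00679 with limma) and 8.82% of target genes passed. Leaving out any other single pool gave no call. The M1-3 pools were singled out by their values, so these calls are no independent support.

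In females Reg3g was 32.21 to 88.65 in 2 control and 269.99 to 625 in 2 HSD pools, a log2 difference of 2.92. In males it was 29.18 to 386.83 and 72.45 to 650.85, a log2 difference of 1.02. The difference between the sexes in the diet difference was 1.90 (standard error 1.90) and did not pass limma's test (adjusted p = 0.880). With 2 pools per sex and diet, the interval of that difference ran from -2.47 to 6.27. The level of Reg3g itself differed by -0.037 between females and males on the log2 scale (standard error 0.99, adjusted p = 0.985 with limma).

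Lyz1 overlapped between the diets over its whole range on HSD. Its normalized count was 205.64 in M1-3, 589.82 in M4-5, 585.88 in F1-3 and 340.37 in F4-5 on the control diet. On HSD it was 557.94, 359.72, 285.5 and 461.2 in the same order. Every HSD pool lay inside the range of the control pools. The highest pool was 2.87 times the lowest, from recovered counts of 92 to 1363. The mean was 430.4 ± 189.9 in control pools and 416.1 ± 118.9 in HSD pools (SD, n = 4 each).

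The log2 difference of Lyz1 was 0.03 (standard error 0.421, 95% interval -0.90 to 0.97), with the highest p of the 68 target genes (adjusted p = 0.942 with limma, exact permutation p = 0.943). The interval includes differences of almost 1 on the log2 scale in either direction. Females and males differed by 0.027 on the log2 scale (standard error 0.426, adjusted p = 0.985 with limma). The diet difference was 0.36 in males and -0.30 in females, and the sexes' difference in it did not pass limma's test (-0.66, standard error 0.876, adjusted p = 0.880).

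In the M1-3 pools the order of Lyz1 was the reverse of that of Reg3g. The control M1-3 pool had the lowest Lyz1 and the highest Reg3g of the control pools, and the HSD M1-3 pool had the highest Lyz1 and the lowest Reg3g of the HSD pools. The value of Reg3g divided by that of Lyz1 was 1.88, 0.0495, 0.151 and 0.0946 in the control pools and 0.130, 1.81, 0.946 and 1.36 in the HSD pools, in the order used above. Because probes differ in how well they capture RNA, the ratio is read between pools and not as a ratio of molecules. Reg3g had the higher value in 1 control pool and in 2 HSD pools, and in HSD F1-3 the values were nearly equal.

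A ratio of values within a pool does not depend on how the pool was scaled, so the diet differences of the genes were compared through it. The ratios were taken on the scale of log2(value + 1), where the added 1 leaves some dependence on scaling. With 0.5 or 10 added instead, the difference of Reg3g against Cnlp was 1.73 or 1.63. The log2 ratio of Reg3g to Lyz1 averaged -2.36 ± 2.28 in control pools and -0.43 ± 1.71 in HSD pools (SD, n = 4 each). The difference of 1.93 did not pass (exact permutation p = 0.314, adjusted p = 0.788 over all 2278 pairs of target genes). Reg3g against Cnlp gave 1.72 (exact permutation p = 0.171, adjusted p = 0.772) and Cnlp against Lyz1 gave 0.21 (exact permutation p = 0.714, adjusted p = 0.921). The diet difference of Reg3g was thus not separated from that of Lyz1 or of Cnlp beyond the spread between pools.

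**Figure D2:**
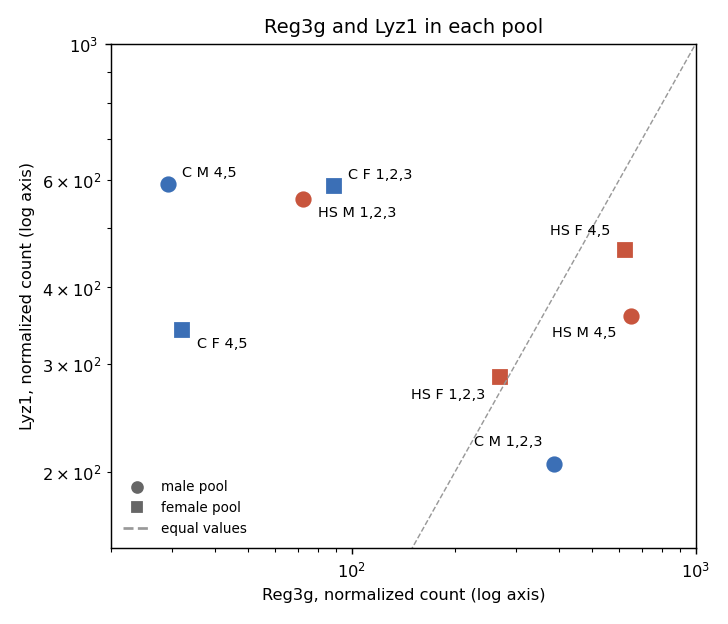
Reg3g against Lyz1 in each pool, both as normalized counts on log axes, with diet by colour (control blue, high salt red), circles for male and squares for female pools, and a dashed line where the values are equal. Pools with Reg3g above Lyz1 are control M1-3 (ratio 1.88), HSD M4-5 (1.81) and HSD F4-5 (1.36).

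Across the 8 pools no pair of antimicrobial genes passed a test of varying together. Reg3g and Lyz1 had a Pearson r of -0.48 (exact permutation p = 0.230, adjusted p = 0.664 over 262 pairs) and a Spearman rho of -0.45 (p = 0.267 by exact permutation), and r was -0.56 without the 2 pools farthest from the median of Reg3g. Reg3g and Cnlp had an r of 0.32 (exact permutation p = 0.441, adjusted p = 0.803) and a rho of 0.19 (p = 0.665 by exact permutation), with -0.11 without the 2 farthest pools. Cnlp and Lyz1 had an r of -0.15 (exact permutation p = 0.734, adjusted p = 0.953) and a rho of -0.33 (p = 0.428 by exact permutation), with -0.10 without the 2 farthest pools. The r of Cnlp and Lyz1 turned sign with 1 pool left out, to 0.066 without control M4-5 and 0.17 without HSD F1-3, while that of Reg3g and Cnlp was 0.091 to 0.57 with 1 pool left out.

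Cnlp was low in every pool. On the control diet its normalized count was 15.82 in M1-3, 12.51 in M4-5, 23.13 in F1-3 and 16.11 in F4-5. On HSD it was 15.56, 14.04, 31.03 and 22.07 in the same order. All 8 values were above the floor and above the highest negative control probe of the pool, by a ratio of 1.38 to 5.00. They rest on 6 to 38 recovered counts, and in the control F1-3 pool the 6 counts give a 95% Poisson interval of 8.49 to 50.3 normalized counts. Poisson intervals cover counting error only.

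The diets overlapped in Cnlp, with means of 16.9 ± 4.47 in control pools and 20.7 ± 7.73 in HSD pools (SD, n = 4 each). The log2 difference was 0.24 (standard error 0.357, 95% interval -0.55 to 1.04, adjusted p = 0.912 with limma, exact permutation p = 0.486). The diet difference was 0.066 in males and 0.42 in females, and the sexes' difference in it was 0.35 (standard error 0.613, adjusted p = 0.951 with limma).

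Cnlp was the antimicrobial gene in which the sexes did not overlap. The 4 female pools had 16.11 to 31.03 and the 4 male pools 12.51 to 15.82, a log2 difference of 0.61 (standard error 0.275). The exact permutation p was 0.029, the lowest that 4 pools against 4 can give, and limma's adjusted p over 68 genes was 0.298. Of all target genes 13.2% had an unadjusted p under 0.05 for sex, and Cnlp was not among them. Of all target genes 10.3% had sexes that did not overlap, each with females above males, and 0% passed the adjusted test. The other 6 of these genes were GABAB, NR2D, P75, SOX10, Tff3 and VIP. Of the 68 target genes 43 had positive differences between females and males, with a median of 0.32. The median log2 value of the 68 target genes in a pool averaged 0.68 higher in female than in male pools. When each pool was centred on this median, the sex difference of Cnlp was -0.075 and the sexes overlapped, from -1.24 to -0.61 in females and from -1.08 to -0.27 in males.

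Cnlp was also higher in the shallower pools. Against the log2 value of 1 count, r was 0.74 (exact permutation p = 0.0413, 0.124 after adjustment over 3 genes) and rho was 0.81 (p = 0.0218 by exact permutation). Without the 2 pools farthest from the median depth, both F1-3, r was 0.27, so the relation rested on them. For Reg3g and Lyz1 r was 0.011 and -0.15 (exact permutation p = 0.978 and 0.715). The median log2 value of the target genes was also highest in these 2 pools, at 5.83 in control F1-3 and 5.61 in HSD F1-3. It was 4.32 to 5.30 in the other pools, so higher values in the shallowest pools were not particular to Cnlp. The part of depth in the sex difference of Cnlp was not tested.

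**Figure D3:**
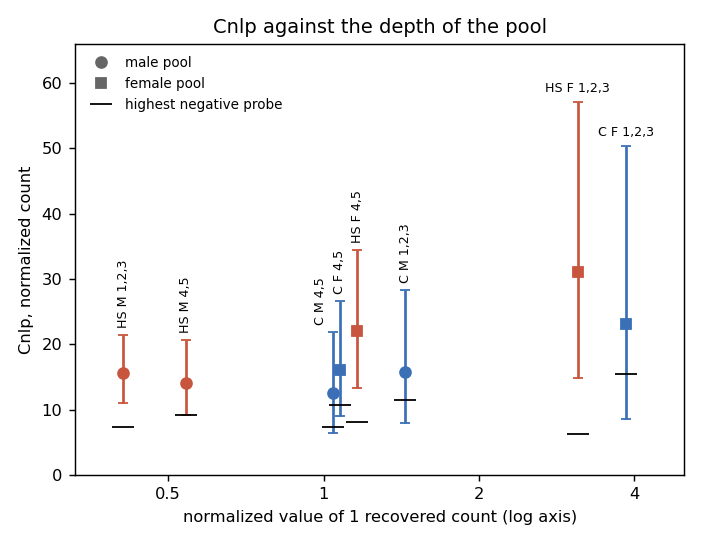
Cnlp (normalized count, linear axis) against the normalized value of 1 recovered count (log axis; high values are shallow pools), with 95% Poisson intervals, diet by colour (control blue, high salt red), circles for male and squares for female pools and dashes for the highest negative control probe. The female pools lie at 16.11 to 31.03 and the male pools at 12.51 to 15.82, and the shallowest pools, both F1-3, have the highest values.

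Defcr1 was at the floor in 7 of the 8 pools. In those pools a hidden value could reach 1 to 15 counts, or 2.32 to 6.51 normalized counts, since listed values were missing below the floor both as counts and as scaled values. The exception was the HSD F1-3 pool, with 27.93 from 9 recovered counts (95% Poisson interval of the value 12.8 to 53.0). There the highest negative control probe had 2 counts, or 6.21 when scaled, and the highest scaled negative probe of any pool was 15.4. Against the bounds of the other 7 pools the value was at least 4.29-fold higher, or at least 1.96-fold from the lower end of its interval. The fitted log2 difference between diets of 1.19 (standard error 0.60, adjusted p = 0.628 with limma, exact permutation p = 0.114) takes floors as values, and floors were higher in some HSD pools. It was 0.57 without the pool of 9 counts. A diet difference in Defcr1 was thus not measurable with 7 of the 8 pools at the floor, and its male pools, all at the floor, give no order.

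**Figure D4:**
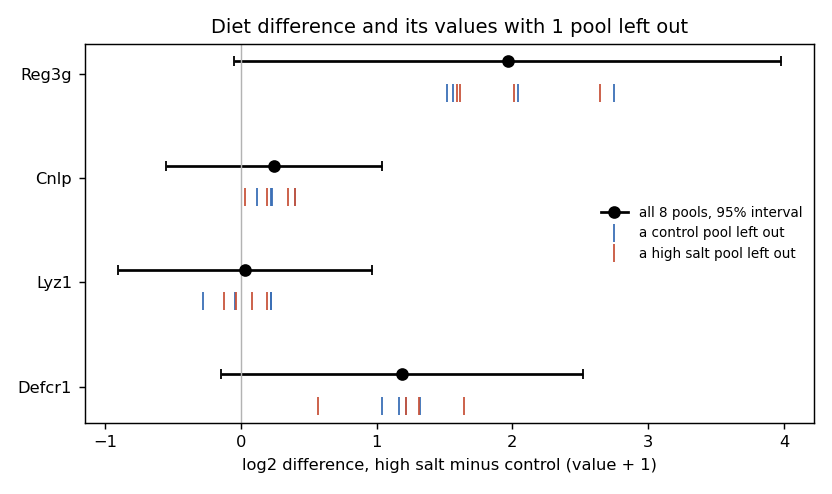
Log2 difference between diets, high salt minus control, on the scale of log2(value + 1), for each gene with its 95% interval from limma (black), and the difference with 1 pool left out (blue ticks, a control pool; red ticks, a high salt pool). Reg3g stays between 1.52 and 2.74 with 1 pool left out, Lyz1 lies on both sides of 0, and the value of Defcr1 is made mostly of floors.

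The genes whose pattern over the 8 pools was most like that of each antimicrobial gene were taken from 53 target genes above the floor in at least 6 pools, by Pearson's r of log2(value + 1). For Reg3g these were I-FABP, a fatty acid-binding protein of enterocytes (r = 0.94, rho = 0.79, exact permutation p = 0.00305 for r), Tlr2, a receptor for bacterial lipoproteins (r = 0.93, rho = 0.76, p = 0.00494), and trpv1, a cation channel of sensory nerves (r = 0.87, rho = 0.76, p = 0.0126). None passed after adjustment over 262 pairs (adjusted p = 0.105, 0.129 and 0.195). After subtraction of each diet's mean r was 0.92, 0.89 and 0.81, after centring on the panel median it was 0.92, 0.89 and 0.76, and without the 2 pools farthest from the median of Reg3g it was 0.85, 0.85 and 0.81. I-FABP was 2873, 358.5, 574.3 and 315.7 in the control pools and 1175, 2835, 3808 and 4297 in the HSD pools, in the order used above. As in Reg3g, the M1-3 pool had the top value on the control diet and the bottom value on HSD.

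For Cnlp the most alike genes given here were S100BETA (r = 0.94, rho = 0.86, exact permutation p = 0.00109) and SOX10 (r = 0.93, rho = 0.90, p = 0.00104), markers of enteric glia. Their adjusted p over 262 pairs was 0.0731 for both. After centring on the panel median r was 0.96 with S100BETA and 0.067 with SOX10, and without the 2 pools farthest from the median of Cnlp it was 0.95 and 0.83. S100BETA itself was at the floor in HSD M1-3 and 5.21 to 15.52 normalized counts in the other pools. Unlike Cnlp, it exceeded the pool's highest negative control probe only in HSD F1-3 (15.52 against 6.21) and HSD F4-5 (10.46 against 8.13). Its r with Cnlp thus rests largely on values at background. For Lyz1 the most alike genes were CCR6 (r = 0.78, rho = 0.83, exact permutation p = 0.0199), HMGB1 (r = 0.77, rho = 0.71, p = 0.0270) and Hif1a (r = 0.72, rho = 0.71, p = 0.0471). Their adjusted p was 0.227, 0.257 and 0.353, and r was 0.84, 0.69 and 0.64 without the 2 pools farthest from the median of Lyz1. CCR6 was at the floor in HSD M4-5 and HSD F1-3, and its 4.31 in control M1-3 was below the highest negative control probe (11.5). Hif1a was also the gene with the pattern most opposite to Reg3g (r = -0.85).

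Genes known to act beside the antimicrobial products were described as lists, in which no gene passed limma's test in either direction with all 8 pools. Among 7 genes of microbial sensing (Tlr2, Tlr4, Tlr5, Nod2, Myd88, Nfkb1 and Tollip), all had positive differences on HSD, with a median of 0.43 on the log2 scale, where 44 of all 68 target genes had positive values and the median was 0.18. Tlr2 averaged 102.3 on the control diet and 206.2 on HSD (log2 difference 1.40, standard error 0.610, adjusted p = 0.628 with limma), and Tlr5, the flagellin receptor, 41.1 and 67.965 (0.70, standard error 0.396, adjusted p = 0.628). Of 4 genes of the interleukin 17 and 22 axis 1 had a positive difference and 3 had negative ones (median -0.47). None of these 4 was above the floor in every pool, and Il17a was at the floor in 6 pools. Il22ra2, a soluble receptor that binds interleukin 22, averaged 31.1 on the control diet and 19.2 on HSD (-1.04, standard error 0.742, adjusted p = 0.806 with limma). Its HSD F1-3 pool was at the floor, and without that pool the difference was -0.21 (standard error 0.433).

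Markers of cells known to make antimicrobial products, and of enteric glia and neurons, were read beside these products. None of the markers passed limma's test with all 8 pools. Among 3 goblet cell and enterocyte products the median difference was 1.73, with Muc2, the mucin of colonic mucus, at 1.73 (standard error 0.816, adjusted p = 0.628 with limma), I-FABP at 2.04 (standard error 0.702, adjusted p = 0.514) and Tff3 at -0.17 (standard error 0.321, adjusted p = 0.912). The sum of the goblet cell markers Muc2 and Tff3 was 23091 to 80836 on the control diet and 37062 to 64903 on HSD. The sum of I-FABP, Lyz1 and Defcr1, which small intestine with its Paneth cells expresses strongly, was 659.7 to 3081 and 1739 to 4760. Of these only I-FABP is not itself an antimicrobial gene; its mean was 1030 on the control diet and 3029 on HSD, while that of Lyz1 was 430.4 and 416.1 and Defcr1 was at the floor in 7 pools. The sum of 5 neutrophil and macrophage markers was 58.4 to 239.0 and 58.9 to 144.4, and 4 of the 5 had positive differences between females and males. In the pools with the highest sums, control F1-3 and HSD F1-3, CCR2 alone made up 158.03 and 80.69. The 3 glial markers GFAP, S100BETA and SOX10 had sums of 43.8 to 146.5 and 39.7 to 180.0, and all 3 had positive differences between females and males, with a median of 0.62. Of the 4 enteric neuron markers PGP9.5, CHAT, VIP and NOS, 3 had positive differences between females and males, with a median of 0.85. Over all 68 target genes 43 had positive differences between females and males, with a median of 0.32. None of these differences was centred on the panel median, which was 0.68 higher in female pools. The part of these cells in the values of Reg3g and Cnlp was not tested.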

How the data were processed

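RNA of 8 colon pools was measured with a custom NanoString panel of 68 target genes, 3 reference genes and 12 control probes. The deposited values are a signal, normalized counts that the authors made in nSolver; its settings for background and scaling, not stated in the sources, were read from the values. In each pool the 487 values above the floor are whole multiples of 1 step within 0.006, which gives the recovered counts, and 81 values are at the floor. Pools were grouped by their labels. Diet was tested with limma 3.58.1 (lmFit and eBayes, R 4.3.3) on log2(value + 1), with Benjamini-Hochberg adjustment over 68 genes at 0.05. Sex was tested with diet as covariate, and the interaction in a fit with both. Exact permutation tests were two-sided, over 70 assignments of pools or 40320 pairings. The limma fit was tested on simulated data. Pools were compared with Python 3.11.15, pandas 2.3.3 and scipy 1.17.1, and sequences came from RefSeq (GRCm38.p6).

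The 4 antimicrobial genes, the gene lists and the cell markers were chosen with earlier results of these data known. Besides the 4 genes, the text names the 3 genes most correlated with Reg3g, Cnlp and Lyz1 and genes of these lists that set them beside their companions. For Cnlp 1 of the 3 is not reported here. Genes counted among 5 or fewer, genes without overlap between sexes and those of opposite pattern were named after their values were seen. Alternatives were other pseudocounts, centring on the panel median, a minimum mean of 20, a common floor, other terms and weights, and leaving out each pool. Alternatives chosen after seeing the data were voom on recovered counts, leaving out both M1-3 pools, median centring for sex and interaction, and subtraction of the mean negative control. Myeloperoxidase, microbiota and defensin protein measurements were not analysed here.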

Additional observations from a re-analysis of the deposited data

How the results depend on the processing

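Across the alternatives, 257 recomputed values kept their direction and side of the threshold, 27 turned sign, 2 newly passed it and 2 counts of genes moved. Without control replicate 1 (M1-3), the diet difference of Reg3g was 2.74 and 5 target genes passed limma's adjusted test. Without both M1-3 pools, it was 3.42 and 6 genes passed. With 1 pool left out the diet difference was 1.52 to 2.74 for Reg3g, 0.033 to 0.40 for Cnlp, -0.28 to 0.22 for Lyz1 and 0.57 to 1.64 for Defcr1, and 0 to 5 genes passed. Lyz1 also turned sign with median centring (-0.0030) and without both M1-3 pools (-0.44). The sex difference with 1 pool left out was -0.86 to 0.89 for Reg3g, -0.34 to 0.26 for Lyz1 and -0.48 to 0.82 for Defcr1, and with median centring it was -0.075 for Cnlp, -0.66 for Lyz1 and -0.46 for Defcr1. The diet by sex interaction with 1 pool left out was -1.42 to 0.097 for Lyz1 and -1.09 to 2.13 for Defcr1. Defcr1 was at the floor in 7 pools, so all its differences given here are made mostly of floors. With median centring r was -0.26 for Reg3g and Cnlp and 0.59 for Cnlp and Lyz1, and without the 2 pools farthest from its median Reg3g had an r of -0.11 with Cnlp. With 1 pool left out r of Cnlp and Lyz1 was -0.38 to 0.17, and the diet difference of their ratio -0.16 to 0.50. Why these values moved was not tested. The mouse numbers did not pair the pools: deviations from the diet means correlated at -0.52, 0.11, 0.16 and -0.31 for M1-3, M4-5, F1-3 and F4-5, and with the replicate block 0 genes passed and Reg3g kept 1.97 (adjusted p = 0.765 with limma). Count models (edgeR and DESeq2) were not run, since the deposited values are normalized and floored. A minimum mean of 20 left out Cnlp and Defcr1, and Defcr1 has no value in voom or among genes above the floor in every pool. Few counts limit Cnlp and Defcr1, and pools of 2 or 3 mice hide the spread between animals.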

Other observations

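Hif1a, which encodes a subunit of the hypoxia-inducible transcription factor, had the pattern most opposite to Reg3g among the 53 target genes ranked (r = -0.85, rho = -0.79, exact permutation p = 0.0166 for r, adjusted p = 0.214 over 262 pairs). It was 268.9 in control M1-3 and 796.7 to 1137 in the other control pools, and it was 728.6 in HSD M1-3 and 188.5 to 417.1 in the other HSD pools. The M1-3 pools thus stood apart from the other pools of their diet in the direction opposite to that of Reg3g. Without the 2 pools farthest from the median of Reg3g r was -0.84, and after centring on the panel median it was -0.80. Cldn2, which encodes a pore-forming claudin of tight junctions, came next (r = -0.72, rho = -0.64, exact permutation p = 0.0521, adjusted p = 0.354).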
